A study of Homo sapiens with 36 samples.

Results

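The genes described here encode the protein coats that shape transport vesicles in the secretory and endocytic pathways. They are the 9 subunit genes of the COPI coat, 9 genes of the COPII coat, 7 coat-recruiting GTPases, 4 subunit genes each of the adaptors AP-1, AP-2 and AP-3, and 3 clathrin chains. These 40 genes were chosen by name as vesicle coat proteins made in the cytosol, out of 19775 genes with a probe set that carries 1 gene symbol, and all 40 were among the 15399 genes tested. The question was whether soluble proteins of the secretory pathway follow the pattern of transcripts for proteins of the endoplasmic reticulum (ER), which were lower in pseudopods.

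Pseudopods (PS) and cell bodies (CB) were compared in 6 human cancer cell lines on 36 Affymetrix HG-U133 Plus 2.0 arrays, with 3 arrays for each line and fraction. The lines come from glioblastoma (U87 and U251), fibrosarcoma (HT1080), prostate carcinoma (DU145) and breast carcinoma (MDA231), and MDA435 is of disputed breast or melanocytic origin. Cells had sat on porous filters for 24 hours, and PS and CB are what was scraped off the lower and the upper side, so each fraction is defined by the side of the filter it was on. The medium was RPMI-1640 for DU145, MDA231 and MDA435 and DMEM for the other 3 lines, all with fetal bovine serum and without any further treatment. Each tumour type is represented by 1 or 2 lines, and the labels do not say whether replicate arrays came from separate cultures, so p-values measure only the spread between these arrays.

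Coat proteins carry no signal peptide. They are made on free ribosomes, stay soluble in the cytosol and gather on a membrane only while a bud forms. COPII buds carry cargo out of the ER and COPI buds return proteins from the Golgi to the ER and between Golgi cisternae. Clathrin forms the outer cage of vesicles whose adaptors choose the membrane: AP-1 at the trans-Golgi network and endosomes, AP-2 at the plasma membrane, and AP-3 on endosomes, for cargo bound for lysosomes. The small GTPases SAR1 and ARF, loaded with GTP at the membrane, call the coats to it. The receptors that hold the cargo are membrane proteins, made at the ER itself.

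Array medians ran from 18.2 to 30.6 intensity units, and each of the 36 arrays had its closest match by correlation within its own line. As a check of the fractions, the summed intensity of the nuclear transcripts MALAT1 and RNA45SN5 had a median of 2851 in pseudopods (728 to 4517) and 5450.1 in cell bodies (2402 to 6713). Of the 5 glial markers, SOX2, GFAP, GPM6A and S100B averaged 1.23 to 18.4 in U87 and PDGFRA 112, whereas in U251 the 5 averaged 32.8 (S100B) to 3177 (GPM6A). SOX2 (248) and S100B (2402) were also present in MDA435, whereas GFAP (14.6), PDGFRA (8.92) and GPM6A (5.07) were low there. Of the 5 melanocytic markers, SOX10 (1468), MITF (1932) and TYR (410) averaged highest in MDA435, and PMEL (22.8) and MLANA (14.9) were low there. The epithelial marker CDH1 varied between arrays of MDA231 (2.2 to 1778), MDA435 (32.8 to 2463) and DU145 (319 to 2237). The 7 epithelial markers summed had medians of 2706 in pseudopods (118 to 14440) and 2530.2 in cell bodies (77.0 to 14696). These medians span lines with and without the markers, so they do not show that the fractions were alike. Over all lines KRT18 (0.31) and KRT7 (0.33) were called higher in pseudopods and CLDN4 (-0.56) lower (log2 change, limma, adjusted p under 0.05). CDH1, EPCAM, KRT19 and CDH3 were not called. Values are over all 6 lines unless a line is named. Without MDA231 and MDA435, 20 of the 21 coat genes called over all lines kept their call and direction.

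More coat genes were called higher in pseudopods than lower. Averaged over the 6 lines, 18 of the 40 coat genes were higher in pseudopods and 3 were lower (limma, adjusted p under 0.05), and 19 did not pass the test. Of the coat genes, 45% were thus called higher and 7.5% lower, beside 29.5% and 20.8% of all genes tested (50.4% in either direction). The median change of the coat genes, pseudopod minus cell body, was 0.13 on the log2 scale (SD over genes 0.25, range -0.64 to 0.70), beside 0.05 for all genes tested. The largest rises were those of the clathrin light chain gene CLTB (1.63-fold), the GTPase gene ARF5 (1.51-fold) and the COPI subunit gene COPE (1.5-fold). None of the 40 fell by 2-fold or more, as 4.32% of all genes tested did.

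Most called changes had 1 sign in all lines, as they did over all genes. Of the 18 risers, 15 (83.3%, beside 82.9% of all genes called higher) had a positive change in 6 of 6 lines and COPZ2, SEC23A and SEC24B in 5 of 6, while COPB1, SAR1B and ARF1 were negative in 6 of 6 lines. Over all genes tested, 24.5% were called higher and 15.5% called lower with 1 sign in all lines, the second being 74.6% of all genes called lower. Scaling the arrays to equal medians moved the median of all genes to 0.17 and that of the coat genes to 0.29. It called 28 of the 40 coat genes higher and 1 lower, beside 6825 higher and 2420 lower of all 15356 genes tested there. Of all genes called in either direction, 73.8% were then higher, against 58.7% on the deposited scale. The coat median stood above the median of all genes by 0.08 on the deposited scale, by 0.12 with equal medians and by 0.0041 after quantile normalization, so the position of the group as a whole beside other genes depends on the scaling. In bulk RNA of a fraction, fewer pseudopods with a transcript and less of it in each cannot be told apart.

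**Figure D1:**
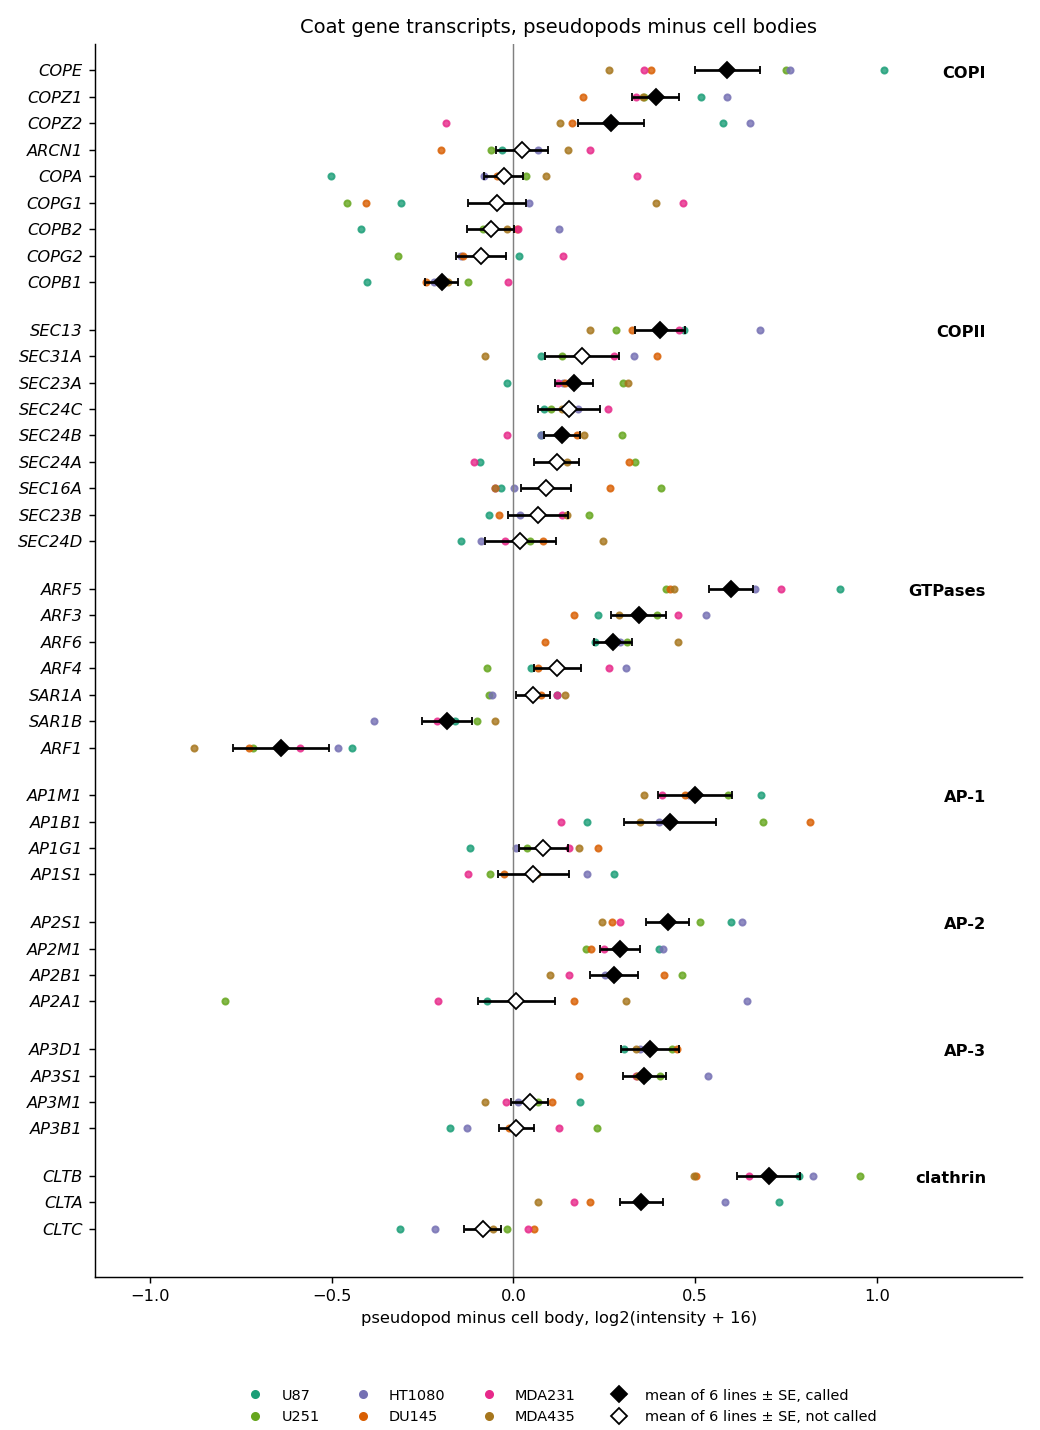
Change of each coat gene, pseudopod minus cell body, on the log2(intensity + 16) scale, by coat. Black diamonds are the mean of the 6 lines with its standard error, filled where the adjusted p is under 0.05, and small points are the 6 lines. Called rises are found in every coat, and ARF1, SAR1B and COPB1 are the 3 called falls.

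COPI has 7 kinds of subunit, and 3 of its 9 genes rose (33.3%, near the 29.5% of all genes): COPE (epsilon) and the zeta genes COPZ1 and COPZ2. COPE intensities ran from 284 to 1146 in pseudopods (median 697), against 254 to 608 in cell bodies (median 453), and its change was 0.59 ± 0.09 (SE; limma, adjusted p = 2.42e-06). The fractions overlapped across lines, but in 4 of 6 lines the 3 pseudopod arrays lay above the 3 cell body arrays, the exceptions being U87 and DU145. COPZ1 rose by 0.39 ± 0.06 (limma, adjusted p = 7.11e-06) and COPZ2 by 0.27 ± 0.09 (adjusted p = 0.014). The call of COPZ2 was lost with its probe sets averaged (0.10, adjusted p = 0.17) and with the 6 line differences as units (adjusted p = 0.0643).

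COPB1, the beta subunit that with the gamma subunits contacts ARF, was the single COPI gene that fell. It ran from 1705 to 3314 in pseudopods (median 2581), against 2165.5 to 3645 in cell bodies (median 2977), and decreased by 0.20 ± 0.05 (limma, adjusted p = 0.00061). In U87 and DU145 the pseudopod arrays all lay below the cell body arrays, while in MDA231 the change was near 0 (-0.02). This fall lost its call with equal array medians (-0.04, adjusted p = 0.661), and it was -0.37 when read by the brightest probe set not marked as shared between transcripts. The other large subunits did not pass the test: COPA (alpha, -0.03), COPB2 (beta prime, -0.06), COPG1 and COPG2 (gamma, -0.04 and -0.09) and ARCN1 (delta, 0.02). With equal array medians COPA, COPB2, COPG1 and COPG2 had a positive sign, with values from 0.05 to 0.13.

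In the COPII coat all 9 genes had a positive average change, as 57.2% of all genes tested did, and 3 rose (33.3%, near the 29.5% of all genes). SEC13, which pairs with SEC31 in the outer cage and is also part of the nuclear pore, had the largest change. It had intensities of 814 to 3266 in pseudopods (median 1391), against 746 to 1970.2 in cell bodies (median 988), with a change of 0.40 ± 0.07 (limma, adjusted p = 1.08e-05). The arrays of the fractions were apart in 3 of 6 lines. SEC23A, which activates the GTPase cycle of SAR1, rose by 0.17 ± 0.05 (limma, adjusted p = 0.00776), and the cargo-binding subunit gene SEC24B by 0.13 ± 0.05 (adjusted p = 0.0275).

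The remaining COPII genes did not pass the test. SEC31A, the cage partner of SEC13, had 0.19 ± 0.10 (limma, adjusted p = 0.126). SEC24C was positive in 6 of 6 lines at 0.15 ± 0.09 (adjusted p = 0.142). SEC24A (0.12), SEC16A, which marks ER exit sites (0.09), SEC23B (0.07) and SEC24D (0.02) had smaller values. The calls of SEC24B and SEC23A rest on little: quantile normalization and the fit with the 6 line differences as units ended both, and SEC24B also lost its call without MDA231 pseudopod replicate 1, DU145 cell body replicate 2 or MDA231 cell body replicate 2.

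The 7 GTPases went in both directions, with 3 higher (42.9%) and 2 lower (28.6%), beside 29.5% and 20.8% of all genes. ARF5, a Golgi ARF, was the one member whose arrays were apart in 6 of 6 lines. Its intensities ran from 548 to 1432.5 in pseudopods (median 801), against 304 to 742 in cell bodies (median 556), a change of 0.60 ± 0.06 (limma, adjusted p = 2.07e-09). In each line every pseudopod array lay above every cell body array, with changes of 0.42 in U251 to 0.90 in U87. ARF3 rose by 0.34 ± 0.08 and ARF6, which acts at the plasma membrane and endosomes, by 0.27 ± 0.05 (limma, adjusted p = 0.000342 and 6.80e-05), both in 6 of 6 lines. The size of the ARF6 change depends on the probe set, as its dimmer ones gave 0.09, 0.34 and 0.02. ARF4 had 0.12 and SAR1A 0.05, neither past the test. The second ARF4 probe set gave 0.34. With probe sets averaged ARF4 (0.23, limma, adjusted p = 0.000312) and SAR1A (0.13, adjusted p = 0.0216) were called higher. Equal array medians also called ARF4 (0.28) and SAR1A (0.22) higher, whereas quantile normalization gave ARF4 a value of -0.0047.

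ARF1, the main recruiter of COPI and AP-1, was read here by a dim probe set. Of the 4 probe sets that name ARF1, 3 name another gene as well and were not used. The one left lay at 6.10 to 77.8 in pseudopods (median 15.4) and 15.0 to 69.7 in cell bodies (median 34.95), which is near the pseudocount of 16. Its change was -0.64 ± 0.13 (limma, adjusted p = 0.000188), with the arrays apart in 3 of 6 lines. At such intensities this value says little about the bulk of ARF1 transcripts.

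SAR1B, the COPII GTPase whose loss impairs lipoprotein secretion, decreased by 0.18 ± 0.07 (limma, adjusted p = 0.0255). Its intensities were 475 to 1099 in pseudopods (median 752) and 660 to 1318 in cell bodies (median 801), with the fractions apart in HT1080 alone. The direction depends on the probe set: of 3 not marked as shared, the brightest gave 0.18 (limma, adjusted p = 0.0114) and the others -0.14 and 0.24. The call was also lost with equal array medians and when its probe sets were averaged.

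Each adaptor complex has 2 large, 1 medium and 1 small subunit, and in each the risers were a subset. They were 50% of the AP-1 genes, 75% of the AP-2 genes and 50% of the AP-3 genes, beside 29.5% of all genes. With 4 genes each, these shares are coarse. In AP-1, AP1M1 (mu) and AP1B1 (beta) rose while AP1G1 (gamma) and AP1S1 (sigma) did not pass the test. AP1M1 had intensities of 500.5 to 1923 in pseudopods (median 1057), against 369 to 1580.4 in cell bodies (median 753), a change of 0.50 ± 0.10 (limma, adjusted p = 0.000169). AP1B1 changed by 0.43 ± 0.13 (adjusted p = 0.00516), although its arrays overlapped in 5 of 6 lines. AP1G1 had 0.08 and AP1S1 0.06, and AP1S1 was positive in only 3 of 6 lines. These values depend on the probe set: the dimmer ones gave 0.31 and 0.33 for AP1S1 and -0.12 and -0.08 for AP1G1. With probe sets averaged AP1S1 was called higher (0.23, limma, adjusted p = 0.0126) and AP1G1 was not (-0.04). With equal array medians AP1G1 was called higher (0.24, limma, adjusted p = 0.00449).

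In AP-2, the adaptor of endocytosis, AP2S1 (sigma), AP2M1 (mu) and AP2B1 (beta) rose. AP2S1 ran from 1350.5 to 4121 in pseudopods (median 2268), against 1082 to 2449.7 in cell bodies (median 2040.0), with a change of 0.42 ± 0.06 (limma, adjusted p = 5.88e-07). AP2M1 rose by 0.29 ± 0.06 and had its arrays apart in 5 of 6 lines, and AP2B1 rose by 0.28 ± 0.07 with 4 of 6 lines apart. These 3 subunits had a positive change in 6 of 6 lines. AP2A1 (alpha) had 0.01, but its probe set was dim, at 5.5 to 68.0 in pseudopods (median 29.65) and 5.2 to 69.6 in cell bodies (median 34.35), which are near the pseudocount, and its change had opposite signs in HT1080 and U251 (0.64 and -0.79).

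In AP-3, AP3D1 (delta) and AP3S1 (sigma) rose, and AP3B1 (beta) and AP3M1 (mu) did not pass the test. AP3D1 had intensities of 768 to 1827 in pseudopods (median 1053), against 621 to 1126 in cell bodies (median 832), and a change of 0.38 ± 0.08 (limma, adjusted p = 0.000203). It stood higher in pseudopods without overlap in 5 of 6 lines. AP3S1 rose by 0.36 ± 0.06 with 4 of 6 lines apart, while AP3M1 had 0.05 and AP3B1 0.01.

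Clathrin is built from heavy chains, which form the legs of the cage, and light chains, which bind to them and regulate assembly. Both light chain genes rose (66.7% of the 3 genes, beside 29.5% of all genes) and the heavy chain gene did not pass the test. CLTB ran from 461 to 1453 in pseudopods (median 594), against 225 to 933 in cell bodies (median 368), a change of 0.70 ± 0.09 (limma, adjusted p = 6.97e-08). Its fractions were apart in 5 of 6 lines, with an overlap in MDA231. CLTA rose by 0.35 ± 0.06 (adjusted p = 1.07e-05). CLTC, the heavy chain, had -0.08 ± 0.05 (adjusted p = 0.174), at 1722 to 3211 in pseudopods and 2009 to 3918 in cell bodies. Its sign was positive with equal array medians (0.08, limma, adjusted p = 0.365). After quantile normalization CLTC was called lower in pseudopods (-0.18, limma, adjusted p = 0.000252).

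**Figure D2:**
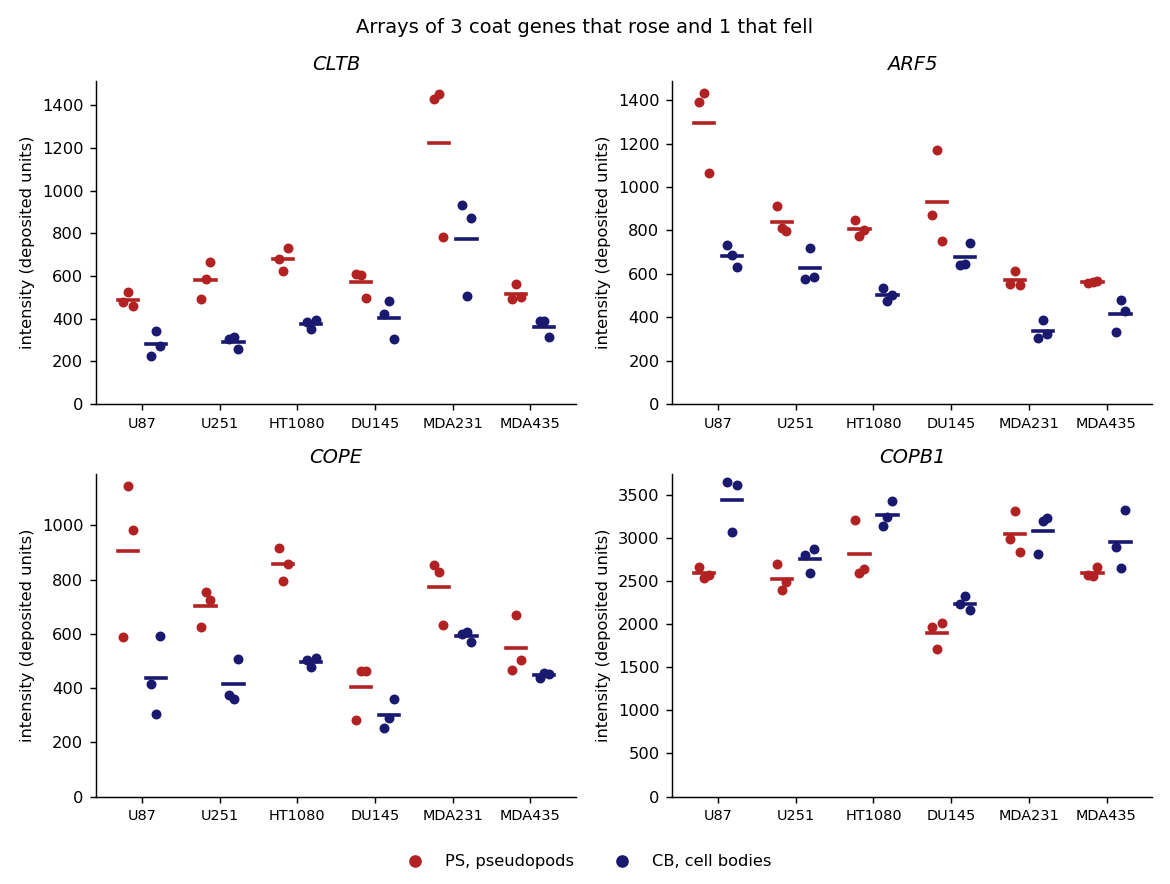
Deposited intensity of CLTB, ARF5, COPE and COPB1 on each array by line, with pseudopod arrays in red at the left of each line and cell body arrays in dark blue at the right, and bars for the means of 3 arrays. ARF5 shows no overlap in any line, CLTB overlaps in MDA231, and COPB1 lies lower in pseudopods without overlap in U87 and DU145.

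To see whether closely related genes moved alike, the changes of 10 pairs were compared with a permutation test over arrays. The test was two-sided, with 100000 random reassignments of pseudopod and cell body labels inside each line and p adjusted over 10 pairs. In the pair AP1B1 and AP2B1 the genes belong to different adaptors. The changes differed in 4 pairs. CLTB rose more than CLTA, with a difference CLTA minus CLTB of -0.35 ± 0.08 (SE over lines; permutation test, adjusted p = 0.00247), and ARF5 rose more than ARF4, with a difference ARF4 minus ARF5 of -0.48 ± 0.08 (adjusted p = 5e-05, from the smallest raw p that these resamples give, 1e-05). Both differences had 1 sign in 6 of 6 lines. SAR1A minus SAR1B was 0.24 ± 0.05 (adjusted p = 0.013), also in 6 of 6 lines, and its sign turned (-0.13) with unmarked probe sets. ARF1 minus ARF3 was -0.98 ± 0.07 (adjusted p = 5e-05), with the dim ARF1 probe set.

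The other 6 pairs did not pass this test. Their differences were 0.04 for COPG1 minus COPG2, 0.12 for COPZ1 minus COPZ2, 0.10 for SEC23A minus SEC23B, -0.01 for SEC24A minus SEC24B, 0.13 for SEC24C minus SEC24D and 0.15 for AP1B1 minus AP2B1, with adjusted p from 0.283 to 0.843 by the permutation test. The standard errors over lines of 0.03 to 0.14 do not show that the genes of these pairs moved alike. With probe sets averaged 6 pairs passed, among them COPZ1 minus COPZ2 (0.21, adjusted p = 0.0217) and SEC24C minus SEC24D (0.29, adjusted p = 0.00397; permutation test). Without marked probe sets 0 of the pairs still measured passed. Pairs with CLTB, ARF3, ARF4 or AP2B1 were not measured, as these genes have no unmarked probe set above the filter. Of the called pairs only SAR1A with SAR1B was measured there, so this setting does not test the other called pairs.

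**Figure D3:**
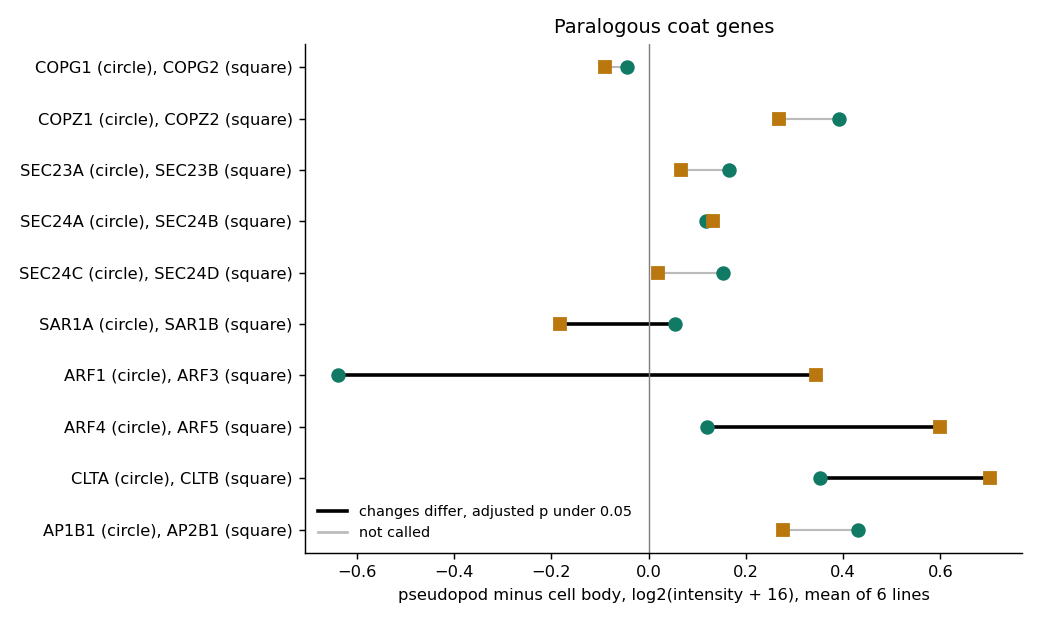
Average change, pseudopod minus cell body, on the log2(intensity + 16) scale, of the first (circle) and second (square) gene of 10 pairs of coat genes. Black lines join pairs whose changes differ at an adjusted p under 0.05, which are SAR1A with SAR1B, ARF1 with ARF3, ARF4 with ARF5 and CLTA with CLTB.

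The membrane proteins that load these coats behaved otherwise. Of 26 cargo receptors and ER exit proteins, 22 were tested, and 21 of them (95.5%, beside 20.8% of all genes) were lower in pseudopods. The list had a median change of -0.91, and 8 of its genes were lower by at least 2-fold, as were 4.32% of all genes. The Golgi receptor of lysosomal enzymes IGF2R, which AP-1 and clathrin package, had 135 to 911 in pseudopods (median 475), against 880.1 to 2421.5 in cell bodies (median 1477), and fell by 1.67 ± 0.15 (limma, adjusted p = 1.57e-10). M6PR, the second receptor of this kind, fell by 1.45 and the ER sorting protein gene BCAP31 by 1.34. LMAN1, a lectin that rides COPII and COPI vesicles, fell by 0.55 ± 0.08 (limma, adjusted p = 2.20e-06).

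The one receptor-list gene that rose was PREB, which encodes the ER membrane protein that loads SAR1 with GTP. It had 321 to 606 in pseudopods (median 417) and 252 to 459.8 in cell bodies (median 361), with a change of 0.27 ± 0.05 (limma, adjusted p = 8.32e-05; 6 of 6 lines). PREB was not tested without marked probe sets, where the receptor list had 0 rises.

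Folding proteins of the ER lumen fell without exception, 24 of 24 tested, beside 20.8% of all genes. They had a median of -1.02 and a range of -1.83 to -0.41, and 14 fell by at least 2-fold, as did 4.32% of all genes. This list, like the others, was chosen with earlier results of these data known. SERPINH1, the collagen chaperone, had 161 to 589 in pseudopods (median 279), against 438 to 1989 in cell bodies (median 983), a change of -1.83 ± 0.12 (limma, adjusted p = 1.22e-12). GANAB, a glucosidase that trims nascent glycans, had -1.49, HSP90B1, the ER member of the HSP90 family, -1.48 and HSPA5, the ER member of the HSP70 family, -1.24. Among ER membrane machinery fixed by name, STT3A, a catalytic subunit of oligosaccharyltransferase, fell by 1.77 and the translocon gene SEC61A1 by 1.23. Every coat gene apart from ARF1 had a change above the highest of the ER lumen genes.

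Cytosolic proteins that regulate the coats stood with the coats. Of 25 regulators 21 were tested, with a median of 0.20. Of these, 12 were higher (57.1%) and 1 lower (4.76%), beside 29.5% and 20.8% of all genes tested. Without marked probe sets, where fewer genes were measured, 6 regulators were higher and 2 lower. With probe sets averaged 2 regulators were lower, with a list median of 0.14. CYTH2, an exchange factor that loads ARF6, rose by 0.58 ± 0.07 (limma, adjusted p = 9.31e-08), and the ARF GTPase-activating protein genes SMAP2 and SMAP1 by 0.42 and 0.34. ARFGEF1, the exchange factor of Golgi ARFs, fell by 0.33 ± 0.07 (adjusted p = 0.00018). Among the other coat subunits and adaptors, 24 of 27 were tested, 10 were higher (41.7%) and 2 lower (8.33%), with a median of 0.09. With probe sets averaged 5 were higher, and 1 was lower in 21 of 36 fits that leave out 1 array. The AP-4 subunit gene AP4S1 rose by 0.56 and the endocytic adaptor gene EPN1 by 0.45, while NUMB, an endocytic adaptor read at a median of 13.75 in pseudopods and 42.05 in cell bodies, fell by 0.72, and SEC16B by 0.23.

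**Figure D4:**
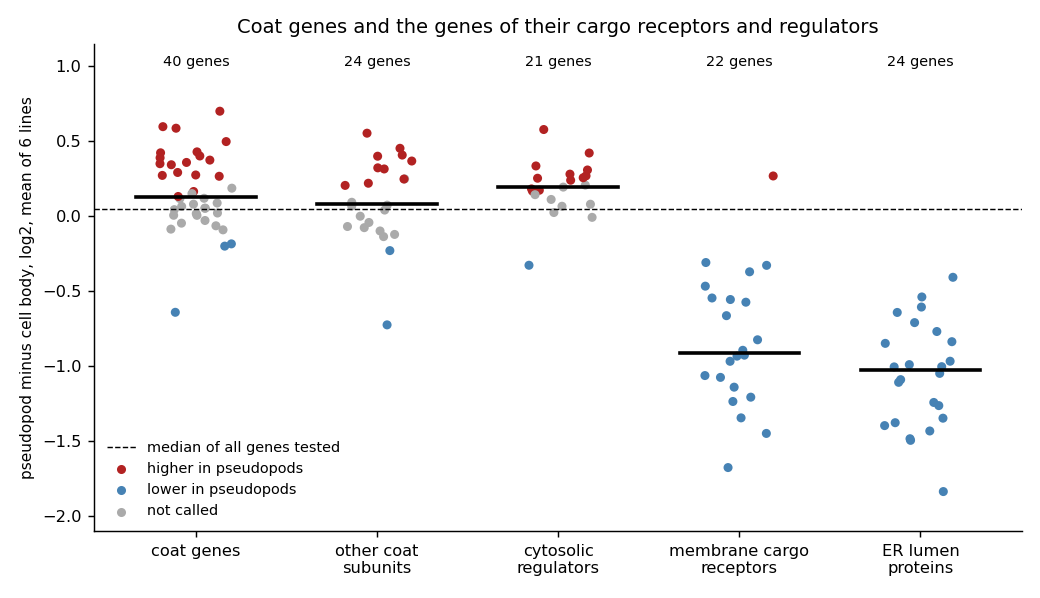
Average change, pseudopod minus cell body, on the log2(intensity + 16) scale, of every tested gene of 5 lists, with black bars at list medians and a dashed line at the median of all genes tested. The coat genes (median 0.13) and cytosolic regulators (0.20) lie around or above 0, and the membrane cargo receptors (-0.91) and ER lumen proteins (-1.02) lie below it, apart from PREB.

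Within single lines the number of calls differed. In U87 9 coat genes were higher and 2 lower (limma, adjusted p under 0.05 within the line), where 11.7% and 11.8% of all genes were called. U251 had 3 higher and 1 lower (all genes 5.36% and 9.33%), and HT1080 11 higher and 0 lower (12.8% and 12%; 1 lower at an unadjusted p under 0.05 and 2 with array weights). DU145 had 0 called (0.825% and 2.16%), with 6 higher and 3 lower at an unadjusted p under 0.05 and 9 higher and 3 lower with array weights. MDA231 had 1 higher and 0 lower (1.18% and 4.90%) and MDA435 2 higher and 0 lower (2.96% and 8.81%). At an unadjusted p under 0.05 MDA231 had 9 higher and 0 lower and MDA435 7 higher and 1 lower, and with array weights MDA231 had 12 and 1 and MDA435 15 and 0. Leaving out 1 array gave DU145 1 higher (without its cell body replicate 3), MDA231 2 higher (without U87 pseudopod replicate 3) or 3 (without MDA231 pseudopod replicate 3), and MDA435 1 lower (without U87 pseudopod replicate 1 or MDA435 cell body replicate 2).

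The median change of the coat genes was 0.08 in U87, 0.22 in U251, 0.19 in HT1080, 0.16 in DU145, 0.15 in MDA231 and 0.15 in MDA435, beside 0.04, 0.07, 0.09, 0.04, 0.0077 and 0.06 for all genes tested in the same lines. The medians of the ER lumen genes, in this order of lines, were -1.52, -1.23, -1.61, -0.66, -0.73 and -0.86. In DU145, where no coat gene was called, 4 of 22 receptor genes and 1 of 24 ER lumen genes were lower, beside 2.16% of all genes. Counted by arrays that do not overlap, the coat genes higher and lower were 8 and 3 in U87 (all genes 17.0% and 14.3%), 18 and 3 in U251 (22.0% and 16.9%), 18 and 3 in HT1080 (29.5% and 18.4%), 10 and 2 in DU145 (16.7% and 14.9%), 9 and 0 in MDA231 (9.11% and 11.9%) and 10 and 1 in MDA435 (12.3% and 12.3%).

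In U87 the clearest rises were ARF5 and CLTB. ARF5 had 1393.8, 1432.5 and 1064 in pseudopods, against 732, 688 and 632 in cell bodies, a change of 0.90 ± 0.15 (limma, adjusted p = 5.53e-05). CLTB had 479, 527 and 461 in pseudopods, against 225, 342 and 274 in cell bodies (0.79 ± 0.21, adjusted p = 0.00618). The COPI genes COPA and COPB1 were the 2 falls of this line. COPA had 1006, 980.4 and 1103 in pseudopods, against 1521, 1519 and 1352 in cell bodies (-0.50 ± 0.13, limma, adjusted p = 0.00561), and COPB1 had 2665, 2534 and 2567 in pseudopods, against 3645, 3065 and 3609 in cell bodies (-0.40 ± 0.11, adjusted p = 0.00828). COPE had the largest change of the line, 1.02 ± 0.22 (limma, adjusted p = 0.000892), but with overlapping arrays of 588.5, 1146 and 984 in pseudopods and 415.5, 306 and 591 in cell bodies. Without U87 pseudopod replicate 2 or U87 cell body replicate 1 the number of U87 risers was 5, and without pseudopod replicate 1 the number of falls was 4. Both COPI falls lost their call with equal array medians, and with probe sets averaged COPA had -0.02 in U87 (limma, adjusted p = 0.941).

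In U251 and HT1080 CLTB and COPE led. CLTB in U251 had 492, 584 and 668 in pseudopods, against 303, 314 and 256 in cell bodies (0.95 ± 0.21, limma, adjusted p = 0.00212), and in HT1080 682, 623 and 729.9 in pseudopods, against 386, 349.9 and 392 in cell bodies (0.82 ± 0.21, adjusted p = 0.00396). COPE in U251 had 624, 755 and 723 in pseudopods, against 374.5, 359.6 and 508 in cell bodies (0.75 ± 0.22, limma, adjusted p = 0.0183), and in HT1080 916, 795 and 857 in pseudopods, against 504, 478 and 511 in cell bodies (0.76 ± 0.22, adjusted p = 0.00988). The fractions were apart for both genes in both lines. The 1 fall of U251 was AP2A1, at 6.2, 11.2 and 26.2 in pseudopods and 34.6, 34.5 and 36 in cell bodies (-0.79 ± 0.26, adjusted p = 0.0362), which are dim values, and this call was lost without U251 pseudopod replicate 1 or 2 or any of the 3 U251 cell body arrays. With probe sets averaged, CLTB in U251 had 0.44 (limma, adjusted p = 0.0708). COPE in U251 lost its call without U251 pseudopod replicate 2 or 3 or cell body replicate 1 or 2. The number of U251 risers moved from fit to fit, with 1 without U251 cell body replicate 1, 5 without MDA231 cell body replicate 2 and 6 without U87 pseudopod replicate 3, and HT1080 had 7 risers without its pseudopod replicate 1.

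In the 2 MDA lines the calls were GTPases. ARF5 in MDA231 had 555, 615 and 548 in pseudopods, against 304, 388 and 323 in cell bodies (0.74 ± 0.15, limma, adjusted p = 0.00475). In MDA435 ARF5 had 560.1, 560.7 and 565 in pseudopods, against 333.5, 481 and 427 in cell bodies (0.44 ± 0.15, adjusted p = 0.0485), and this call was lost in 26 of the 36 fits that leave out 1 array, with 0 calls left in MDA435 without its pseudopod replicate 2 or cell body replicate 1. ARF6 in MDA435 had 1351, 1549 and 1433 in pseudopods, against 999, 1105 and 1044 in cell bodies (0.45 ± 0.13, limma, adjusted p = 0.0177). Its call was lost with probe sets averaged (0.25, limma, adjusted p = 0.233) and with the replicate block (limma, adjusted p = 0.07). These calls are not shown to be particular to a line, since 0 coat genes passed the test of a difference between lines that follows.

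A moderated F test asked whether the change of a gene differs between lines. It called 0 of 40 coat genes and 1.18% of all genes (limma, adjusted p under 0.05), with 4 coat genes at an unadjusted p under 0.05. With array weights these 4 were called, and without U87 pseudopod replicate 3 the count was 1. The largest F values were those of COPA (F = 4.34, adjusted p = 0.169), COPG1 (F = 4.33, adjusted p = 0.171), AP2A1 (F = 3.62, adjusted p = 0.269) and CLTA (F = 3.18, adjusted p = 0.343). COPG1 had changes of -0.31 in U87, -0.46 in U251, 0.04 in HT1080, -0.40 in DU145, 0.47 in MDA231 and 0.39 in MDA435, and its adjusted p with array weights was 0.000736. Over the 4 lines without MDA231 and MDA435, COPG1 was lower in pseudopods by 0.28 on the log2 scale (log2 change -0.28, adjusted p = 0.0177).

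COPG1, a gamma subunit of COPI, ran from 123 to 303 in pseudopods (median 189) and 85.0 to 417 in cell bodies (median 188). In MDA231 it had 129, 147 and 179 in pseudopods, against 106, 126 and 85.0 in cell bodies, without overlap. In U251 it had 126, 155 and 139 in pseudopods, against 180.5, 164 and 259 in cell bodies, also without overlap and in the opposite direction. In MDA231 the pseudopod and the cell body array with the highest COPG1 were also the ones with high CDH1 (1299 in pseudopods and 1778 in cell bodies, against at most 13.7 in the others), and the part of this in the result was not tested. The reverse held in DU145, where the arrays with the highest COPG1 (178 in pseudopods and 220.0 in cell bodies) had the lowest CDH1 (319 in pseudopods and 857 in cell bodies), and in MDA435 cell bodies the array with the highest COPG1 (224) had the lowest CDH1 (32.8). In MDA435 pseudopods the array with the lowest COPG1 (204.6) had the lowest CDH1 (33.2). The MDA435 pseudopod array with the highest COPG1 (303) had a CDH1 of 921.5, between those of the others.

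COPA ran from 775 to 1464 in pseudopods (median 1225) and 687 to 1521 in cell bodies (median 1229), and its sign differed between lines. Its change was -0.50 in U87, 0.34 in MDA231 and values between -0.08 and 0.09 in the other 4 lines. CLTA ran from 1964 to 3690.0 in pseudopods (median 2384) and 1521 to 2285 in cell bodies (median 2020.1). Its change was 0.73 in U87, 0.58 in HT1080 and 0.07 in MDA435, with a positive sign in all 6 lines. Its other bright probe sets gave 0.28 and 0.38 on average, a weaker one gave 0.06, and a dim unmarked one gave 0.21 (adjusted p = 0.211) and -0.28 in U87.

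**Figure D5:**
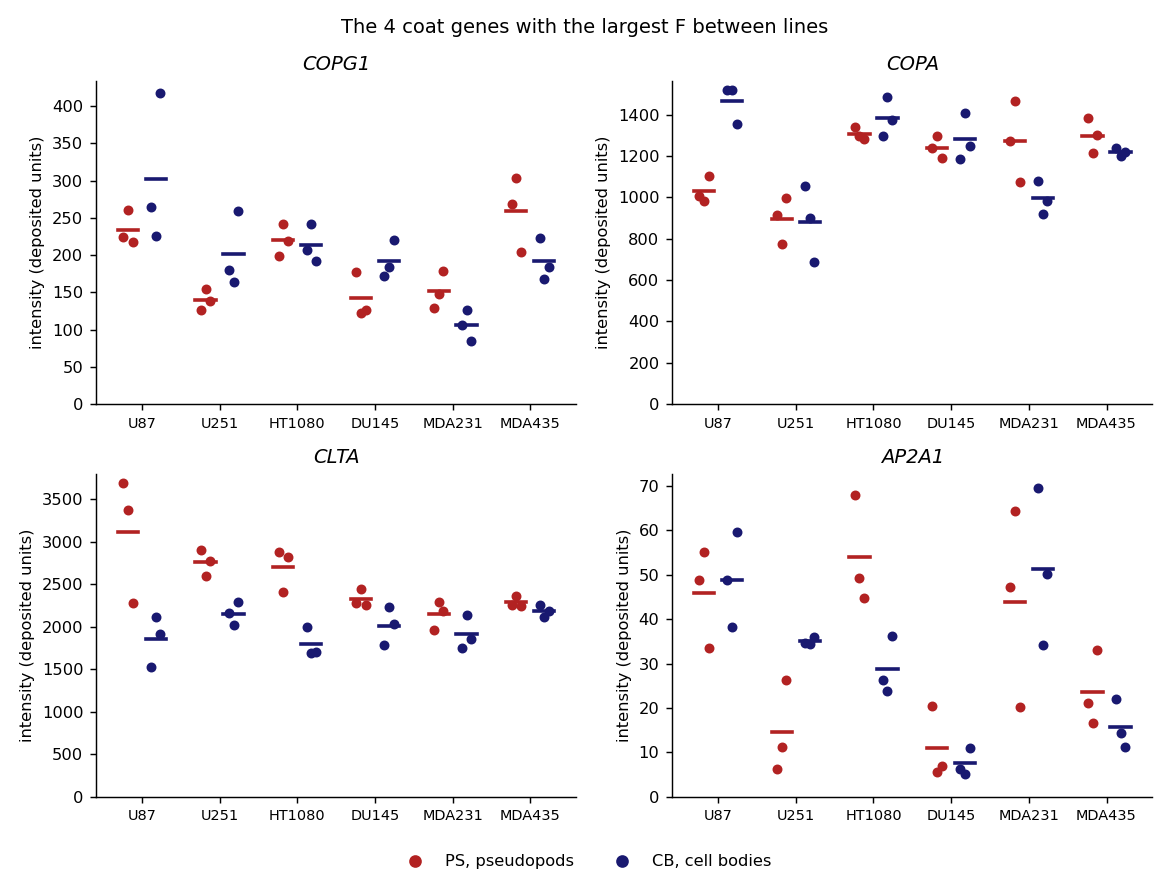
Deposited intensity of the 4 coat genes with the largest F between lines, COPG1, COPA, CLTA and AP2A1, on each array, with pseudopod arrays in red at the left and cell body arrays in dark blue at the right of each line, and bars for the means of 3 arrays. COPG1 lies higher in pseudopods in MDA231 and lower in U251, COPA is lower in pseudopods in U87, and AP2A1 stays under 70 intensity units throughout.

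Separate probe sets of a gene gave a check on these values. The 40 genes have 95 probe sets, of which 83 passed the filter on low values, and 24 genes have several such probe sets. In 19 of these 24 all probe sets had changes of 1 sign, and in 5 (AP1G1, AP2A1, COPA, COPZ2 and SAR1B) the signs differed. Of the 11 risers with several probe sets, 10 had positive changes in each, COPZ2 being the exception, whose second probe set was dim (12.1 in pseudopods and 12.6 in cell bodies). Some of these positive changes were near 0, the lowest being 0.02 for ARF6 and 0.06 for CLTA. CLTB was read by 3 probe sets with 0.70, 0.66 and 0.53. In all, 16 genes were read by a probe set marked as shared between transcripts, which may also bind transcripts of other genes.

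The level of the coat genes differed between lines. The ratio of the highest to the lowest line mean, over both fractions, had a median of 1.84 over the 40 genes. COPZ2, the less common zeta subunit, had the highest ratio, 13.8, ahead of AP2A1 at 5.15, with means of 623 ± 219 in U87, 390.3 ± 113 in HT1080, 271 ± 66.8 in MDA435, 231 ± 49.6 in U251, 102 ± 20.5 in DU145 and 45.1 ± 5.83 in MDA231 (SD, n = 6 arrays each). The ranges of MDA435, at 204 to 371, and U251, at 184.5 to 304, overlapped, whereas those of DU145 (79.4 to 138) and MDA231 (36.3 to 51.7) did not overlap with each other or with the rest. In MDA231, its lowest line, COPZ2 had its single negative change, -0.18.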

How the data were processed

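RNA of pseudopod and cell body fractions, amplified in 2 cycles per the labels' protocols, was measured on 36 arrays, and their number limits the precision. The deposited table holds a linear intensity for each probe set and array. The submitters' processing notes list RMA and Partek with neither role nor version, and which program gave these intensities was not stated there. Means over probe sets, after trimming 2% at each end, lay between 149.2 and 149.6 on every array, so the deposited values share a common mean. The design allowed for log2 or linear values; as the deposited values were not log2, log2(intensity + 16) was computed here, a scale that understates changes of dim genes.

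Of 54593 probe sets, 41074 name 1 gene in the platform annotation, 1798 several and 11721 none. Entrez numbers gave 41020 of the first kind their present symbols in RefSeq (GRCh38.p14), without coordinates. Each of the 19775 genes was read by its brightest probe set on average, and 15399 were tested because a group mean reached 24.4 intensity units, the median of all deposited values.

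limma 3.58.1 (R 4.3.3) fitted 12 group means, which leaves 24 residual degrees of freedom. Contrasts were pseudopod minus cell body over all lines and in each line, and a moderated F test between lines; calls needed a Benjamini-Hochberg adjusted p below 0.05 over the genes tested. Pairs were compared by a permutation test with 100000 resamples. The fits were tested on simulated data. Figures were drawn in Python 3.11.15 with matplotlib 3.10.9.

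The coat genes and all lists were chosen with earlier results of these data known. All members are named. Array values are given for the called member with the largest rise and fall of each coat, for up to 2 called rises and 2 called falls of a line whose arrays do not overlap, for the 4 largest F values and for up to 3 called genes of each list; for the lists some are given by their change alone. SAR1B, CLTC, PREB, COPE in U87, the second probe set of COPZ2 and its levels by line were added after their values were seen. HSPA5, SERPINH1, STT3A, SEC61A1, KDELR2 and LMAN1 were fixed by name, and KDELR2 was not analysed here, nor were AP3S2, EPN2, HSPA8, USO1, ARFRP1, TMED7, SORT1 and TXNDC5, since no probe set with 1 symbol was used for them. Some other listed genes are not reported here. SEC16B, PREB and ARFGEF1 are named as the exceptions of their lists. A planned description by protein length was not run, as no protein table was used here.

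Replicate numbers 1 to 3 recur in each group. Same-numbered pseudopod and cell body arrays deviated from their group means with correlations of -0.78 to 0.69, over 0.1 in 4 of 18 pairs, so the arrays were not treated as paired.

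Alternatives were the pseudocount, the filter on low values, the scaling of arrays, the probe sets used per gene, a replicate block, array weights, the 6 line differences as units, 4 lines, and leaving out each array in turn.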

Additional observations from a re-analysis of the deposited data

Results flagged for a closer look

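Among the coat genes, 3 had pseudopod arrays without overlap above the cell body arrays in 1 line and below them in another. For AP2A1 the change in HT1080 minus that in U251 was 1.44 on the log2 scale, at dim intensities of 68.0, 49.4 and 44.7 in pseudopods and 26.4, 23.7 and 36.2 in cell bodies of HT1080. For COPG1 the change in MDA231 minus that in U251 was 0.925. For AP3B1 the change in U251 minus that in HT1080 was 0.357. The difference between those 2 lines was not tested by itself; the F test over all 6 lines gave adjusted p = 0.269 for AP2A1, 0.171 for COPG1 and 0.802 for AP3B1 (limma). These pairs of lines were picked for their difference.

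Among the genes of the comparison lists, the change of the ER lumen gene FKBP10, a prolyl isomerase that acts on collagen, differed between lines (F = 8.27, limma, adjusted p = 0.0114). Its intensities ran from 1.6 to 77.0 in pseudopods (median 9.15) and 2.3 to 242 in cell bodies (median 58.7).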

How the results depend on the processing

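Of the 21 coat genes called over all lines, 21 kept their call and direction with a pseudocount of 1 or 64, with no filter and with array weights, 20 of 20 with a filter at 100 intensity units, 20 over 4 lines, 19 with equal array medians, quantile normalization, the mean of all probe sets or the replicate block, 18 with line differences as units and 13 of 15 without marked probe sets. With 36 arrays left out in turn, 17 to 20 coat genes were higher and 3 lower, with medians of 0.12 to 0.15. The cause of the changes below was not tested, except that fewer genes were measured without marked probe sets. Equal array medians gave 28 coat genes higher, 1 lower and a median of 0.29, with 0 lower in U87, 0 lower in U251 and 4 higher in MDA231, and turned COPA (0.13), COPB2 (0.10), COPG1 (0.10), COPG2 (0.053) and CLTC (0.077). Quantile normalization gave 5 higher in U87, 5 higher and 0 lower in U251, 2 lower in HT1080 and 1 lower in MDA435, and turned COPG1 (0.016), ARCN1 (-0.020), ARF4 (-0.0047) and SEC24A minus SEC24B (0.0074). A pseudocount of 1 gave 1 higher and 1 lower in MDA435 and turned AP2A1 (-0.0088). A pseudocount of 64, and likewise the filter at 100 intensity units, gave 4 lower in U87, 6 higher and 0 lower in U251 and 2 higher in MDA231. The mean of all probe sets gave 1 lower in U87, 7 higher and 0 lower in U251, 1 lower in HT1080, 1 higher in DU145 and 2 higher and 1 lower in MDA231, and turned COPA (0.044), SEC24D (-0.14, then called lower), AP1G1 (-0.040) and COPG1 minus COPG2 (-0.0028). Without marked probe sets there were 4 higher in U87, 1 in U251, 6 in HT1080 and 1 in MDA435, 1 lower in HT1080, 0 higher receptor genes and 0 called pairs, and SAR1B (0.18, then called higher), CLTA in U87 (-0.28), SEC23A minus SEC23B (-0.065) and SAR1A minus SAR1B (-0.13) turned. Leaving out MDA231 and MDA435 turned ARCN1 (-0.056), SEC24D (-0.027), AP2A1 (-0.015), AP3B1 (-0.021), COPG1 minus COPG2 (-0.14), COPZ1 minus COPZ2 (-0.0023) and SEC24A minus SEC24B (0.013). Array weights gave 16 higher and 2 lower in U251, 2 lower in HT1080, 9 higher and 3 lower in DU145, 12 higher and 1 lower in MDA231, 15 higher in MDA435 and 4 coat genes called by the F test, and turned COPG1 (0.030).

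The replicate block gave 5 higher in U87, 0 lower in U251 and 0 higher in MDA435, and ended the calls of SEC24B and SAR1B; of 36 arrays, 7 correlated best with an array of their own number. With 1 array left out, counts higher were 5 to 10 in U87, 1 to 6 in U251, 7 to 12 in HT1080, 0 to 1 in DU145, 1 to 3 in MDA231 and 0 to 2 in MDA435, counts lower were 2 to 4 in U87, 0 to 1 in U251 and 0 to 1 in MDA435, and the F test called 0 to 1. Signs that turned in such fits were those of ARCN1 (-0.0049 to 0.058), SEC24D (-0.022 to 0.063), AP1S1 (-0.019 to 0.10), AP2A1 (-0.036 to 0.061), AP3B1 (-0.0077 to 0.032), COPG1 minus COPG2 (-0.0039 to 0.082) and SEC24A minus SEC24B (-0.046 to 0.022). Probe sets near the pseudocount, such as those of ARF1 and AP2A1, limit what can be said of these genes.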
